A study of Drosophila melanogaster with 18 samples.

Results

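The unwashed granule pellet of wild-type fly heads, named granules 1, was compared with the head lysate it was spun out of, to describe which kinds of RNA sediment with it. The comparison rests on 6 of the 18 libraries of the series, taken by their labels: 3 wild-type granules 1 libraries and 3 wild-type tissue lysate libraries, with replicate numbers 1 to 3 in both fractions. Wild type was the white-eyed strain w1118 of Drosophila melanogaster, and the adult flies were untreated. Heads of many anesthetized flies were pooled, ground in a buffer with the detergent Triton and strained, which gave the lysate. The lysate then went through a slow spin, and a faster spin of the supernatant pelleted granules 1. A washed pellet of the same kind was granules 2. Material that the slow spin took out is part of the lysate and cannot be in the pellets. A depleted RNA may thus have left with the slow spin or stayed in solution after the faster one, and these fractions cannot tell which. The labels number the granule isolates of a preparation 1 and 2 and do not mention the wash, so isolate 1 was taken as the pellet collected directly and isolate 2 as the washed one, after the study's methods. Flies of both sexes were used in the study, and the sex and age of those in these libraries were not given. Further groups were used only to show where the wild-type pellet differs. These were granules 1 and lysate of Δmimi flies, which carry a deletion at the locus of the long noncoding RNA mimi, with 3 libraries each, and the 3 libraries of wild-type granules 2.

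RNAs in cells are bound by proteins, and many of these assemblies, from single ribosomes to neuronal granules that carry silenced mRNAs along axons and dendrites, differ widely in size. Centrifugation separates by size and density, so a pellet holds whatever is heavy enough at that speed and was not taken out by an earlier spin. Its RNA content alone does not say which particle carried an RNA. Heads of flies are rich in photoreceptors, the pigment cells that screen them and the secreted corneal lens above them, beside brain neurons, glia, muscle and fat body.

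Total counts ranged from 5598380 to 7798946 in the lysates and from 5655144 to 6943657 in granules 1. Levels are CPM, the counts relative to a library total that edgeR's TMM factors had adjusted, so they state the composition of a fraction and not its amount of RNA. Preparation 2 stood apart from preparations 1 and 3 in both fractions: chi-square values of gene counts per degree of freedom lay between 31.8 and 48.8 where preparation 2 was compared with another preparation, and were 5.77 and 8.69 for preparations 1 and 3. Summed muscle markers were at 38262 CPM in lysate 2 against 16745 and 18285 CPM in lysates 1 and 3. Fold changes were therefore fitted within preparations. The study describes the preparations as biological replicates. Whether they came from separate fly cultures is not stated, so p-values measure the spread between these preparations.

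Of 9744 genes tested with edgeR's quasi-likelihood F test, 710 were enriched in the pellet and 920 were depleted, which is 7.29% and 9.44% of the genes tested. A gene was called here when the Benjamini-Hochberg adjusted p was below 0.05 and the log2 fold change was beyond 0.5 in either direction. The enrichment reached further than the depletion: 56 genes were enriched by a log2 fold change above 2 and 6 were depleted below -2. Of the 1630 called genes, 1613 moved in the same direction in all 3 preparations, and in 1322 the 3 libraries of one fraction did not overlap those of the other. Over all genes tested, 32.8% did not overlap. The median log2 fold change of all genes tested was -0.04. Leaving the preparations unpaired changed the split: 469 genes were then enriched and 327 depleted.

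**Figure D1:**
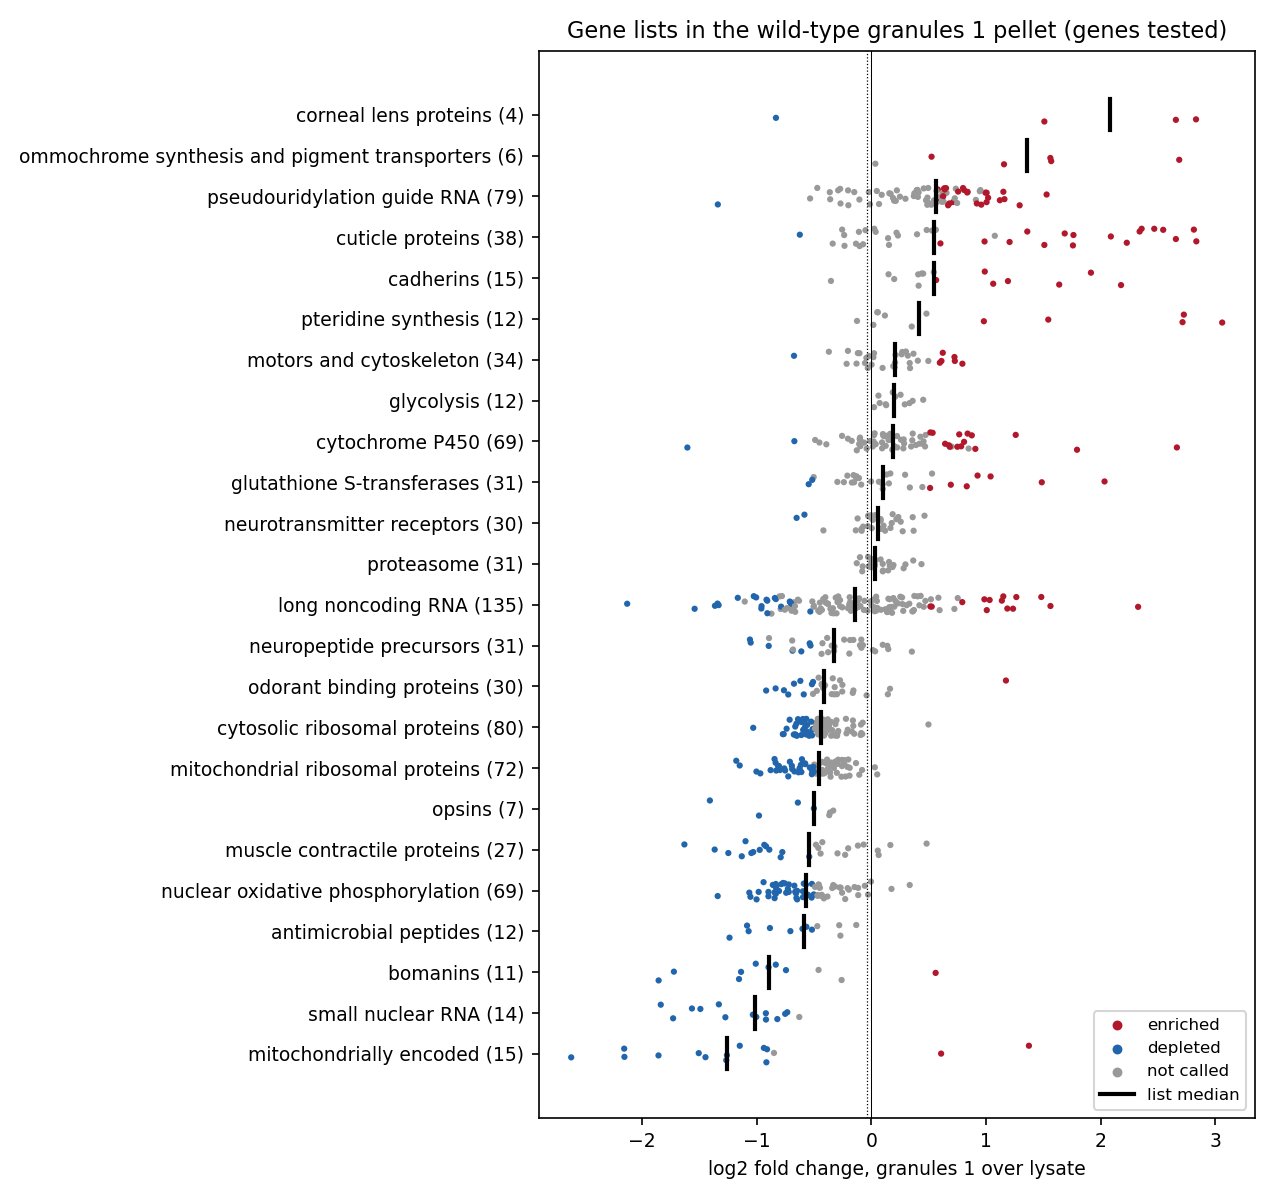
Each point is a tested gene, placed by its log2 fold change of wild-type granules 1 over lysate, in 24 gene lists ordered by their median (black bar), with the number of genes tested in parentheses. Red marks enriched, blue depleted and grey uncalled genes, and the dotted line is the median of all genes tested at -0.04. Lists of lens, pigment, cuticle, cadherin, cytochrome P450, glutathione S-transferase and long noncoding RNA genes have members beyond 2. Small nuclear and mitochondrially encoded RNAs lie below 0 with 2 exceptions.

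The 10 genes with the largest enrichment were sepia and 9 genes known only by number. sepia (se), which encodes the enzyme that makes the direct precursor of the red drosopterin pigments, had 209.6, 270.5 and 223 CPM in lysates 1 to 3 and 1832, 2202 and 1819 CPM in granules 1 of the same preparations. The fractions did not overlap, and se was 8.34-fold higher in the pellet (log2 fold change 3.06, SE 0.09, adjusted p = 4.89e-10 by edgeR). The gene lies on chromosome arm 3L at 8520552 to 8521489 of the dm6 assembly. CG13071, on 3L at 16262740 to 16263247, rose from 34.1, 39.1 and 38.2 CPM in the lysates to 343, 451 and 352 CPM in the pellets. CG5653, on the same arm at 8964912 to 8966374, had 38.7, 42.9 and 37.4 CPM in the lysates and 329.8, 384 and 331 CPM in the pellets. Their log2 fold changes were 3.36 (SE 0.09) and 3.13 (SE 0.08), and the lowest pellet library lay far above the highest lysate library in both. The other 7 of the 10 largest enrichments were CG31268 (3.39), CG34247 (3.26), CG11997 (3.20), CG32284 (3.17), CG13046 (3.04), CG34382 (3.02) and CG32237 (2.99) on the log2 scale. Except for CG13046, these 7 were below 4 CPM in every lysate library and below 20 CPM in every pellet library, and the largest of their SE was 0.39, for CG34382.

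The largest depletions were in RNAs that are not mRNAs of nuclear genes, with few exceptions. mt:srRNA (-2.62), mt:lrRNA (-2.16), mt:ND1 (-2.15) and mt:ND3 (-1.86) come from mitochondrial DNA, and sncRNA:CR43603 (-2.09), snoRNA:229 (-2.0) and snRNA:U4atac (-1.84) are short noncoding RNAs. lncRNA:cherub, a long noncoding RNA known from neural stem cells, had 5.9, 4.3 and 4.74 CPM in the lysates and 0.472, 1.5 and 1.41 CPM in the pellets (log2 fold change -2.13, SE 0.37). BomS5, a short immune peptide, had -1.86, and CG8157, with at most 5.11 CPM in any library, had -1.96 (SE 0.42). The call of CG8157 was lost without the pairing (adjusted p = 0.0998).

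Some genes of the red eye pigments were enriched by more than 2 on the log2 scale, and others of the same pathway lay near 0. The pteridine pathway starts from GTP, passes through 6-pyruvoyltetrahydropterin and ends in the drosopterins, and it shares intermediates with the cofactor tetrahydrobiopterin. Of 12 genes tested of this pathway and its neighbours, listed after values had been seen, 5 were enriched and none was depleted. The enriched share was 41.7%, beside 7.29% of all genes tested. Punch (Pu), the GTP cyclohydrolase that opens the pathway, stands on 2R at 21175315 to 21182608. It had 679, 940.4 and 642 CPM in the lysates and 4884, 4817 and 5037 CPM in the pellets, a log2 fold change of 2.72 (SE 0.12, adjusted p = 1.39e-08 by edgeR). purple (pr), the synthase of the next intermediate, rose by 2.71 on the same scale, from 163, 195 and 161 CPM to 1113, 1066 and 1225 CPM. All 3 pellets lay above all 3 lysates for both genes, and preparation 2 did not stand apart in the pellets. With se, Pu and pr, enzymes next to the pathway made up the 5: raspberry (ras), the IMP dehydrogenase of GTP synthesis, by 1.54 (SE 0.08), and Henna (Hn), the phenylalanine hydroxylase that uses the cofactor, by 0.98 (SE 0.09). Other enzymes of the same pathway had small values. The log2 fold change was 0.02 for DhpD, the deaminase of dihydropterin, 0.05 for Sptr, the sepiapterin reductase, and -0.13 for Dhpr, the dihydropteridine reductase. It was 0.48 for clot (cl), 0.35 for rosy (ry) and 0.12 for maroon-like (mal), of which cl and ry had adjusted p below 0.05 but stayed within the fold limit.

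The brown ommochrome pigments are made from tryptophan, and their precursors enter pigment granules through ABC transporters. Of 6 tested genes of this branch and of pigment transport, also listed after values had been seen, 5 were enriched (83.3%, beside 7.29% of all genes tested). scarlet (st), a transporter subunit for ommochrome precursors, had 64.3, 73.4 and 67.5 CPM in the lysates and 196, 211 and 198 CPM in the pellets, a log2 fold change of 1.56 (SE 0.08, adjusted p = 2.70e-08 by edgeR). brown (bw), the subunit for the red pigment precursors, had 108, 104.4 and 103 CPM and 379, 196 and 404 CPM. Its pellet 2 lay well below pellets 1 and 3, yet above every lysate, and the log2 fold change was 1.57 (SE 0.16). cinnabar (cn), the kynurenine hydroxylase, was scarce, at 0.824, 1.35 and 0.338 CPM in the lysates and 5.5, 5.41 and 6.16 CPM in the pellets. The values of cn are so small that the SE of its log2 fold change of 2.68 was 0.36. karmoisin (kar), a transporter family member, rose by 1.16, and cardinal (cd), a peroxidase of the last step, by 0.52. The call of cd was lost without preparation 2, where its fold change fell within the limit (adjusted p = 0.0443), and without the pairing (adjusted p = 0.115). vermilion (v), the tryptophan dioxygenase that opens the branch, had a log2 fold change of 0.03. white (w), the gene mutated in w1118, had at most 1 count in any of the 6 libraries and was not tested.

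Pigment granules are lysosome-related organelles built by trafficking proteins that are used in many cells. Of 10 tested genes of this machinery, listed after values had been seen, 1 was enriched. Rab32, a small GTPase that in other species too marks lysosome-related organelles, had 506, 595 and 447 CPM in the lysates and 1574, 1459 and 1599.6 CPM in the pellets, a log2 fold change of 1.59 (SE 0.11). The other 9 ranged from -0.07 for orange (or), a subunit of the AP-3 adaptor, to 0.37 for pink (p), and included garnet (g) at 0.24, deep orange (dor) at 0.13 and carnation (car) at 0.19. Purine synthesis, which supplies GTP, was checked after ras had been seen: 5 of 7 tested genes were enriched (71.4%), with ras counted in both lists. Pfas rose by 0.92, from 96.8, 167 and 118 CPM to 191, 304 and 223 CPM, Gart by 0.81, Prat by 0.89 and bur by 0.66. Prat2 and Paics had log2 fold changes of 0.20 and 0.22. Without the pairing, 3 of the 7 were called, and Pfas (adjusted p = 0.0561) and Gart (adjusted p = 0.135) were not.

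**Figure D2:**
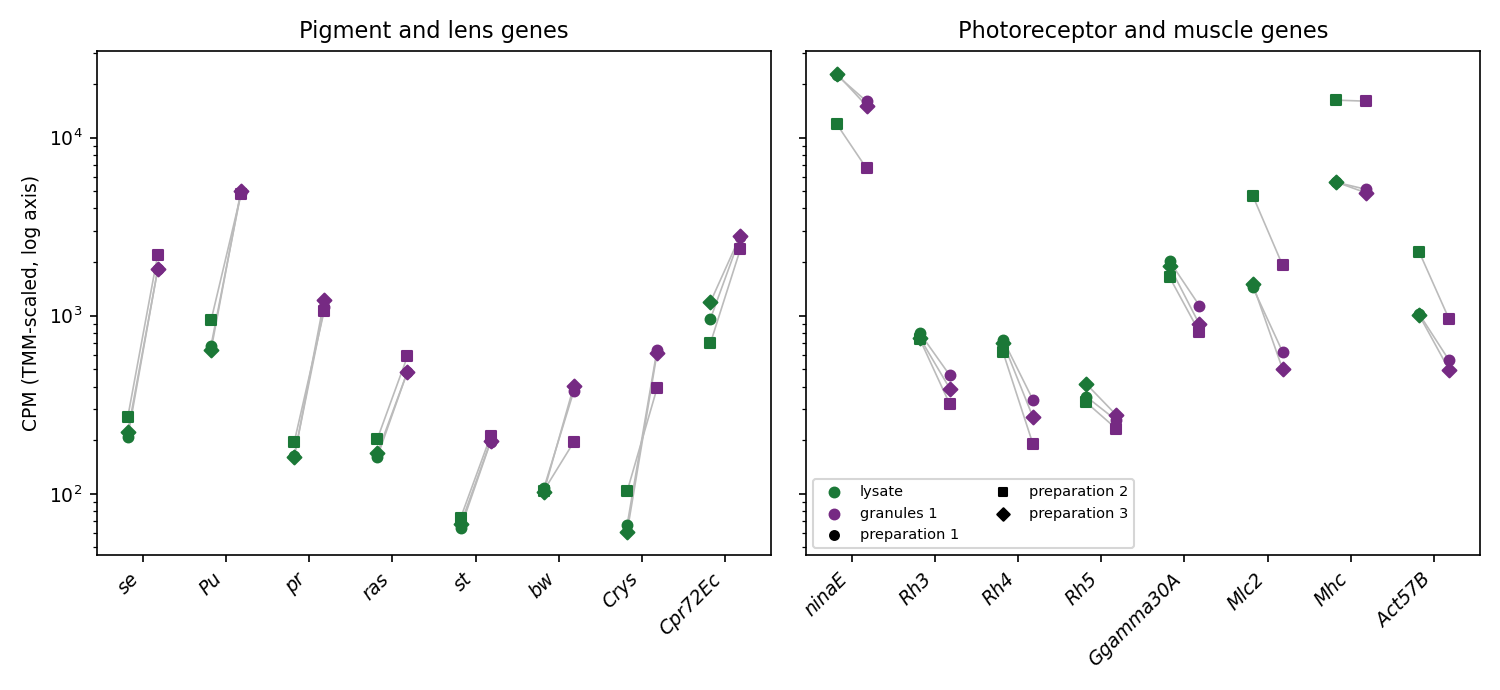
CPM of 16 genes in each library, on a log axis, with lysate in green, granules 1 in purple and a grey line joining the fractions of 1 preparation (circle, square and diamond for preparations 1, 2 and 3). All pigment and lens genes shown rose in each preparation, and the opsins, Ggamma30A, Mlc2 and Act57B fell. The pigment and lens genes shown are a selection and do not stand for their full lists. Of the tested genes, 5 of 12 of the pteridine list were enriched, and 5 of 6 of the list of ommochrome synthesis and pigment transporters. The others in these lists were not called. Of the 4 lens genes 3 were enriched, and retinin, which is not shown, was depleted. Mhc was not called, and its level in both fractions of preparation 2 was above that of the others.

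The lens and the visual cycle were split. The corneal lens is a secreted structure of chitin and a few abundant proteins, and all 4 of the listed genes of these were called, 3 enriched and 1 depleted. Crys, which encodes the lens protein drosocrystallin (2L, 11944129 to 11947131), had 66.7, 103 and 61.1 CPM in the lysates and 644, 392 and 617 CPM in the pellets, a log2 fold change of 2.83 (SE 0.21, adjusted p = 1.09e-06 by edgeR). Its pellet 2 lay below pellets 1 and 3 and above every lysate. Cpr66D rose by 2.66 (SE 0.16) and Cpr72Ec by 1.51 (SE 0.11), both cuticle-type proteins of the lens. retinin, the other lens protein gene, went the other way in every preparation, with 1304, 2165 and 769 CPM in the lysates and 767, 1074 and 468 CPM in the pellets (log2 fold change -0.83, SE 0.09, adjusted p = 2.26e-05). Its fractions overlapped, with lysate 3 below pellet 2. Without the pairing the call of retinin was lost (adjusted p = 0.225). Of 7 genes for the uptake of carotenoids and the cycling of the chromophore, listed after values had been seen, 4 were enriched and 2 depleted. These are 57.1% and 28.6%, beside 7.29% and 9.44% of all genes tested. santa-maria, a scavenger receptor for carotenoids, rose by 1.76, from 226, 237 and 224 CPM to 773, 739 and 819 CPM. The oxygenase ninaB rose by 0.83, and the retinol dehydrogenases Pdh and rdhB by 0.77 and 0.71. pinta, a retinoid-binding protein, fell by 1.68-fold (log2 fold change -0.75, SE 0.11), and ninaG, an oxidoreductase of chromophore synthesis, had a log2 fold change of -0.69, with its call lost without preparation 2 (adjusted p = 0.0116, with the fold change within the limit) and without the pairing (adjusted p = 0.265).

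The light receptors themselves were depleted or had values below 0. Opsins are membrane proteins that photoreceptors make in bulk on the endoplasmic reticulum. Rh4, an ultraviolet opsin of inner photoreceptors, had 733, 623 and 706 CPM in the lysates and 336, 189.6 and 269 CPM in the pellets, a log2 fold change of -1.41 (SE 0.11, adjusted p = 1.06e-06 by edgeR). Rh3, the other ultraviolet opsin, fell from 799, 738 and 750.2 CPM to 463, 318 and 390.1 CPM, with a log2 fold change of -0.98 (SE 0.09). No pellet reached the lowest lysate in either gene. ninaE, the main opsin of the outer photoreceptors, had 22448, 11937 and 22857 CPM in the lysates and 15969.6, 6708 and 15069 CPM in the pellets, with its lowest value in both fractions in preparation 2. Its log2 fold change was -0.64 (SE 0.10, adjusted p = 5.72e-04), and the call was lost when the preparations were not paired (adjusted p = 0.347). Rh5 had -0.50, barely beyond the limit, and its call was lost with RLE or DESeq2 scaling, without preparation 3, with a correction for exon length and without the pairing (adjusted p = 0.0546). Rh2, Rh6 and Rh7 had -0.36, -0.33 and -0.37 and were not called, although their adjusted p were below 0.05.

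Across phototransduction as listed, 2 of 29 tested genes were enriched (6.90%), ninaB and santa-maria, and 7 depleted (24.1%). Over all genes tested these shares were 7.29% and 9.44%. The strongest depletion besides Rh4 was in inaF-B, a small membrane protein needed for the TRP channel (-1.35, SE 0.10), and in Ggamma30A, the gamma subunit of the visual G protein, which fell from 2027, 1647 and 1897 CPM to 1137, 807 and 894 CPM (log2 fold change -0.98, SE 0.09). The exons of Ggamma30A sum to 12543 bases, against a median of 955 bases over depleted coding genes. Summed photoreceptor markers, 13 genes with none at 0, were at 46870.2 to 63057 CPM in the lysates and 39117 to 57625 CPM in granules 1, and 4 of the 13 were depleted and none enriched. Both fractions of a preparation came from the same pooled heads, so these sums do not measure numbers of cells or RNA per cell.

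Cuticle protein genes, which encode secreted structural proteins of the exoskeleton, made up a list with many enriched members. Of 38 tested, 17 were enriched (44.7%, against 7.29% of all genes tested) and 1 was depleted, and their median log2 fold change was 0.55 against -0.04. This list overlaps that of the lens: Cpr72Ec, given above as a lens gene, is counted in both. Medians of the log2 ratios in preparations 1 to 3 were 1.19, 0.21 and 0.95, so preparation 2 gave a smaller shift than the others. Vajk4 had 16.8, 18.8 and 18.8 CPM in the lysates and 137, 114 and 139 CPM in the pellets, a log2 fold change of 2.83 (SE 0.10). Cpr49Ag, of the chitin-binding Cpr family, rose by 2.54 (SE 0.12) and Cpr62Bb by 2.34 (SE 0.11). Cpr65Au, the depleted member, fell from 217, 332 and 222 CPM to 161, 195 and 140.0 CPM. Without the pairing, 13 of the 38 were enriched and Cpr65Au was not called (adjusted p = 0.0918).

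Several enriched genes encode surface or secreted proteins known from the eye, which were singled out after their values had been seen. borderless (bdl), an immunoglobulin protein, had 1152, 1378 and 1000.4 CPM in the lysates and 5363, 5319 and 5231 CPM in the pellets, a log2 fold change of 2.18 (SE 0.11). roughest (rst), an adhesion protein that places pigment cells, rose by 1.46, and Gp150, a leucine-rich repeat receptor, by 1.23. argos (aos), the secreted inhibitor of the EGF receptor, rose by 1.99 and reduced ocelli (rdo) by 2.21. laza, a lipid phosphatase of photoreceptors, rose by 2.01. Of 15 tested cadherins, listed after values had been seen, 7 were enriched (46.7%, beside 7.29% of all genes tested) and none depleted. Cad99C was at 2.18, Cad89D at 1.91 and fat (ft) at 0.99 on the log2 scale. Among 73 tested genes of neuronal recognition, 8 were enriched (10.96%, beside 7.29% of all genes tested) and none was depleted. The median log2 fold change of these 73 was 0.04, against -0.04 for all genes tested. DIP-epsilon, an immunoglobulin partner of the Dpr proteins, went from 122, 126 and 104.2 CPM to 605, 582 and 652 CPM, a log2 fold change of 2.38 (SE 0.10). The others called were rst, Dscam2 (0.81), CadN (0.56, lost without the pairing at adjusted p = 0.0579) and 4 more.

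RNAs made in mitochondria had a median log2 fold change of -1.26. Mitochondrial DNA encodes a few proteins of the respiratory chain, and its transcripts are made, kept and translated within the organelle. They took 4.29%, 3.8% and 3.98% of the counts of lysates 1 to 3 and 1.35%, 1.34% and 1.3% of those of granules 1. The mean share was 4.02% ± 0.249 in the lysates and 1.33% ± 0.0269 in the pellets (SD, n = 3 each), and the 3 shares of each fraction did not overlap. The two-sided exact permutation test, which did not use the pairing, gave p = 0.1, the smallest that 3 against 3 libraries allow. Of 15 tested genes, 12 were depleted and 2 enriched. mt:srRNA, the small ribosomal RNA of the organelle, had 889, 1162 and 1493 CPM in the lysates and 217, 119.7 and 253 CPM in the pellets, a log2 fold change of -2.62 (SE 0.18, adjusted p = 4.10e-07 by edgeR). mt:lrRNA, the large one, fell from 17915, 15378 and 14787 CPM to 4989, 2447 and 3761 CPM. No pellet came near the lowest lysate for either rRNA, and pellet 2 was the lowest. The log2 fold change was -2.15 for mt:ND1 and -1.86 for mt:ND3, and the weakest depletion called was -0.91 for mt:ND4, all 3 of them subunits of complex I. Both enriched members were rare: mt:tRNA:Tyr-GTA had at most 6.31 CPM in any library, and mt:ND2 had 8.24, 15.2 and 10.7 CPM in the lysates and 10.2, 26.3 and 16.4 CPM in the pellets. mt:ND2 is a subunit of complex I. Without the pairing neither was called, and without preparation 2 mt:ND2 lost its call (adjusted p = 0.0536). The kit removes rRNA, so levels of rRNA reflect what was left after removal.

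**Figure D3:**
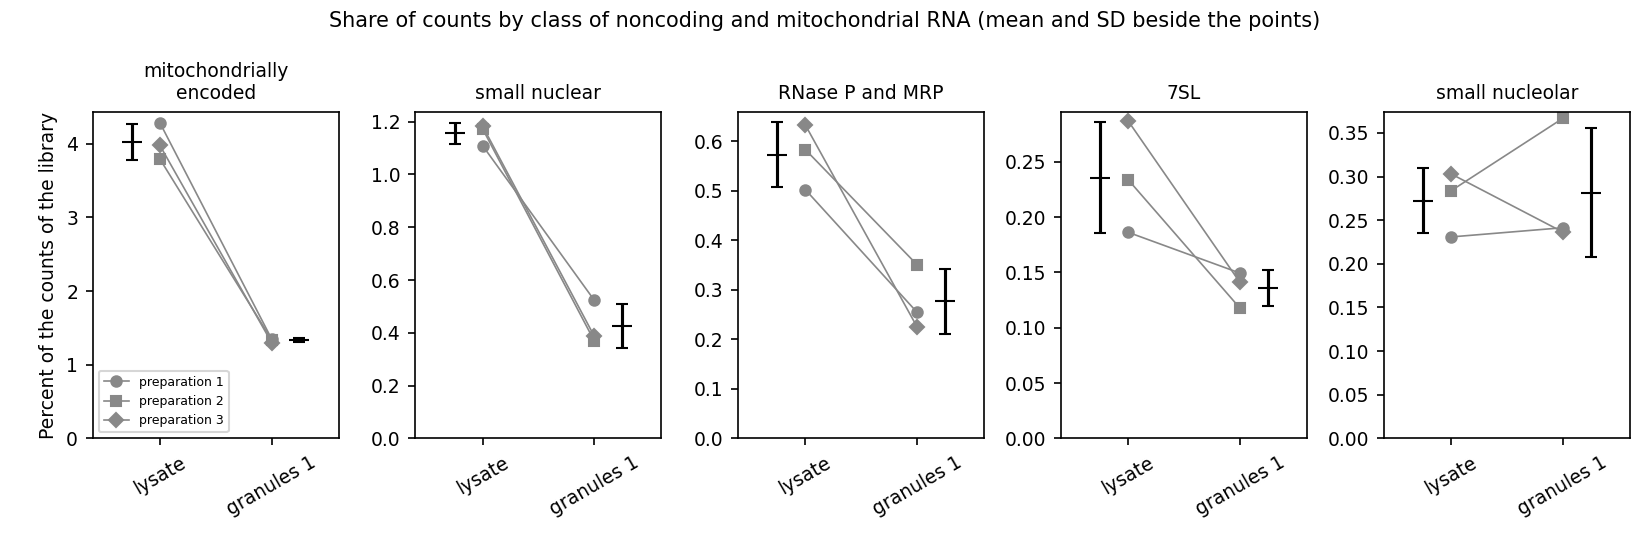
Percent of each library's counts in 5 classes of RNA in the lysate and in granules 1, with lines joining the fractions of 1 preparation and the mean ± SD of 3 libraries beside the points. The first 4 classes fell in every preparation, the mitochondrially encoded RNAs to 1.30% to 1.35%, and the share of small nucleolar RNA rose in preparations 1 and 2 and fell in preparation 3.

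Nuclear genes for the same organelle were depleted too, by less. Of 69 tested nuclear genes of oxidative phosphorylation, 40 were depleted (58.0%, against 9.44% of all genes tested) and none enriched, and their median was -0.57. By complex, which was tabulated after values had been seen, 18 of 33 genes of complex I, 2 of 4 of succinate dehydrogenase, 4 of 9 of complex III, 10 of 12 of cytochrome c oxidase and 6 of 11 of ATP synthase were depleted. COX7C, a small subunit of cytochrome c oxidase, had 203, 384 and 188 CPM in the lysates and 116, 175 and 103 CPM in the pellets, a log2 fold change of -0.94 (SE 0.09, adjusted p = 5.57e-06 by edgeR). COX7A and ND-MLRQ, a subunit of complex I, had log2 fold changes of -0.90 and -0.84. ATPsynbeta, the catalytic subunit of ATP synthase, had a log2 fold change of -0.12. Of 72 tested proteins of the mitochondrial ribosome, 31 were depleted (43.1%) and none enriched (median -0.45), with mRpS6 at -1.18 and mRpL42 at -0.97. Without the pairing, 5 of the 69 and 14 of the 72 were depleted, and COX7C, ND-MLRQ and mRpL42 were not called.

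The mRNAs of the cytosolic ribosome leaned the same way: 28 of 80 tested were depleted, none was enriched, and 79 of the 80 had a value below 0. These mRNAs are among the most translated of the cell and are short. RpL41, the smallest ribosomal protein, had 494, 546 and 568 CPM in the lysates and 344, 314 and 304 CPM in the pellets, a log2 fold change of -0.74 (SE 0.09), and RpL30 had -0.76 (SE 0.10). The median was -0.44, and the medians of preparations 1 to 3 were -0.22, -0.62 and -0.50. The count moved with the library left out: 48 of the 80 were depleted without preparation 1 and 12 without preparation 2. Translation factors gave 3 depleted of 42 (7.14%, beside 9.44% of all genes tested). These were eEF1alpha2, eEF1beta and eIF3k, at -0.72, -0.66 and -0.57. eEF2, of the highest mean CPM in the list with no regard to length, had 0.08.

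Nearly all small nuclear RNAs tested were depleted. Whether they left with the earlier slow spin or stayed in solution cannot be told from these fractions. Small nuclear RNAs form the spliceosome, or, as 7SK, hold back the elongation factor P-TEFb. They took 1.11%, 1.17% and 1.18% of the counts in the lysates and 0.523%, 0.369% and 0.387% in the pellets (mean 1.16% ± 0.0402 against 0.426% ± 0.0843, SD, n = 3 each, exact permutation p = 0.1, the smallest possible). Of 14 tested, 13 were depleted. The 7SK RNA (snRNA:7SKa, 3R, 7474553 to 7474996) had 9099, 10723 and 9588 CPM in the lysates and 4391, 2979 and 3220.2 CPM in the pellets, a log2 fold change of -1.49 (SE 0.13, adjusted p = 4.86e-06 by edgeR). Within the spliceosome, U4atac had -1.84 and the U4 genes snRNA:U4:38AB and snRNA:U4:39B -1.73 and -1.57. U12 and U11 of the minor spliceosome had -1.33 and -0.92. The U1 and U5 genes tested lay between -1.0 and -0.63, of which the last, snRNA:U1:95Cb, was not called. Reads of near-identical copies of U1, U2, U4 and U5 may have been split or lost in the counting, so values of single copies are uncertain.

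Structured RNAs of tRNA processing, rRNA processing and protein export were depleted too. RNaseP:RNA, which trims the leaders of transfer RNA precursors, had 2295, 2855 and 2770.0 CPM in the lysates and 1157, 760.1 and 963 CPM in the pellets, a log2 fold change of -1.47 (SE 0.14). RNaseMRP:RNA, which cuts ribosomal precursor RNA, had 2525, 3259 and 3219.6 CPM and 1413, 2898 and 1275 CPM, and pellet 2 overlapped the lysates. Its call (log2 fold change -0.78, adjusted p = 0.0031) was lost without preparation 3 (adjusted p = 0.0602) and without the pairing (adjusted p = 0.21). The RNA of the signal recognition particle, which directs secretory proteins to the endoplasmic reticulum, had a log2 fold change of -0.80 for the gene 7SLRNA:CR32864, whose second copy is nearly identical. sncRNA:CR43603, a short RNA with no role known here, had -2.09 (SE 0.24).

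Small nucleolar RNAs had more members enriched than depleted, by a margin that rested on preparation 2 and on the pairing. They guide the modification of ribosomal and small nuclear RNAs, and most lie in introns of other genes. Of 114 tested, 30 were enriched (26.3%, beside 7.29% of all genes tested) and 4 depleted (3.51%, beside 9.44%), with a median of 0.41. Without preparation 2, 12 were enriched and 9 depleted of 108 tested, and without the pairing 4 and 2 of the 114. The share of counts did not differ beyond the spread: 0.231%, 0.284% and 0.303% in the lysates and 0.241%, 0.366% and 0.236% in the pellets (exact permutation p = 0.8). Guides of pseudouridylation by name, tabulated after values had been seen, made up 27 of the 30. snoRNA:Psi28S-3436a had 40, 44.7 and 51.1 CPM in the lysates and 71.2, 144 and 88 CPM in the pellets, a log2 fold change of 1.12 (SE 0.14), and pellet 2 was the highest library. The medians of the 79 tested guides in preparations 1 to 3 were 0.42, 0.81 and 0.01, so the shift came from preparations 1 and 2. Without preparation 2, 12 of 75 tested were enriched, and without the pairing 4 of the 79. In contrast, snoRNA:Psi28S-2566 and snoRNA:229 were depleted, at -1.34 and -2.0 on the log2 scale, the first of them not without the pairing (adjusted p = 0.0623). The strand setting of the counting is not stated, so reads of host introns may be included.

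Among long noncoding RNAs, 14 of 135 tested were enriched (10.4%, beside 7.29% of all genes tested). In the same list 20 were depleted (14.8%, beside 9.44%), and its median was -0.14. Without the pairing 5 were enriched and 5 depleted, and DESeq2 gave 5 and 9 of 133. Without preparation 1 the counts were 9 and 18 of 128, without preparation 2 they were 9 and 22 of 130, and without preparation 3 they were 8 and 11 of 134. mimi itself, which the study describes as a scaffold of neuronal granules (3R, 23983503 to 23985065), had 1489, 954 and 1262 CPM in the lysates and 2399.7, 2763 and 2313 CPM in the pellets. The lowest pellet lay above the highest lysate, and the log2 fold change was 1.03 (SE 0.14, adjusted p = 1.14e-04 by edgeR). In percent of all tested genes, 7.29% were enriched, so enrichment alone did not set mimi apart. Hsromega, the heat shock RNA of nuclear speckles, rose by 1.15, from 1731, 1356 and 1708 CPM to 3301, 4878 and 2738 CPM, with pellet 2 the highest library. lncRNA:CR44608 rose by 2.33 from levels below 3 CPM. roX2, which coats the male X chromosome for dosage compensation, fell from 418, 496 and 459.8 CPM to 215, 243 and 161 CPM (log2 fold change -1.16, SE 0.10). lncRNA:noe, of the highest mean CPM in the list with no regard to length, fell from 5937, 4836 and 4839.9 CPM to 2114, 2470.1 and 1636 CPM, a log2 fold change of -1.34.

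Of 12 tested RNAs of components that the study names for mimi granules, mimi was enriched, 2 were depleted and 9 were not called, where 16.7% of all genes tested were called in either direction. Rbp9, an RNA-binding protein of the ELAV family, had 708, 498 and 638 CPM in the lysates and 333, 272 and 291 CPM in the pellets, a log2 fold change of -1.03 (SE 0.08, adjusted p = 2.26e-06 by edgeR), and the copper chaperone Atox1 had -0.60 (SE 0.09). The potassium channel genes Shab and Hk had 0.16 and 0.10, the adenylate cyclase rutabaga (rut) 0.16, the phosphodiesterase dunce (dnc) -0.12 and klingon (klg) 0.17. For the RNA-binding proteins stau and fne it was -0.27 and -0.35, for the motor adaptor BicD -0.02 and for the protease Usp14 0.20. These 9 thus lay between -0.35 and 0.20. Most of these are named in the study as proteins of the granules and not by their RNA. In the wider list of 32 tested RNA-binding proteins of granules, egl was enriched (0.59) and Rbp9 depleted, and the median was -0.03.

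Among tested genes of neuronal excitability, 3 of 24 channels, 2 of 30 transmitter receptors and 3 of 33 genes of transmitter release were called, beside 16.7% of all genes tested. Of the 24 voltage-gated and leak channels, Ih (0.84) and Irk2 (0.78) were enriched and sand, a leak channel, was depleted (-0.96, lost without the pairing at adjusted p = 0.118). Of 30 tested receptors of fast and slow transmitters none was enriched, and GluRIIA, a glutamate receptor of muscle (-0.58), and Grd (-0.65) were depleted. Both of those calls were lost without the pairing (adjusted p = 0.112 and 0.0595), that of GluRIIA also without preparation 3 and that of Grd without preparation 2. Of 33 genes of transmitter release, Sytalpha (0.85) and Rab3-GEF (0.66) were enriched and nSyb, the vesicle SNARE, was depleted (-0.55, lost without the pairing at adjusted p = 0.123). None of 46 olfactory and taste receptors was called by edgeR or DESeq2, while 7 had an unadjusted p below 0.05, and 30 of the 46 had a value above 0. Without preparation 1, 1 of 43 tested was enriched. Summed neuron markers, 10 genes with none at 0, were at 3066 to 4028 CPM in the lysates and 2886 to 3563 CPM in granules 1. Glia wrap and insulate neurons. Summed glia markers, 13 genes with none at 0, were at 3447 to 4258 CPM in the lysates and 4468 to 4894 CPM in granules 1. Of the glia markers, Gli (0.85), moody (0.76) and axo (0.56) were enriched and nrv2, a sodium pump subunit, was depleted (-0.64, lost without the pairing at adjusted p = 0.069). Fat body markers, 9 tested with 1 enriched, were at 5015 to 7217 CPM in the lysates and 6152 to 9357 CPM in granules 1, and hemocyte markers, 9 tested with 2 enriched, at 744 to 1029 CPM in the lysates and 1006 to 1206 CPM in granules 1. Female germline markers, 11 tested with 3 depleted, were at 182 to 199 CPM in the lysates and 146 to 148 CPM in granules 1. The part of other cell types in the results was not tested.

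Several lists of short secreted peptides had more members depleted than enriched. Of 31 neuropeptide precursors tested, 7 were depleted (22.6%, beside 9.44% of all genes tested) and none enriched, with a median of -0.33. Pdf, the peptide of the clock neurons, had 45.3, 26.5 and 43 CPM in the lysates and 23.4, 11.6 and 20.8 CPM in the pellets, a log2 fold change of -1.05 (SE 0.11, adjusted p = 2.09e-05 by edgeR), Crz, corazonin, had -1.06 and Ilp2, the insulin-like peptide of brain cells, -0.69. Of 12 antimicrobial peptides 8 were depleted (66.7%). Among them were Drsl5, a drosomycin-like peptide, from 539, 398 and 567 CPM to 292, 162 and 267 CPM (-1.08), Drsl4 (-1.24) and defensin, Def (-0.60). Bomanins are short immune peptides controlled by Toll signaling, and 8 of 11 tested were depleted (72.7%), a list made after values had been seen. BomS5 had -1.86 (SE 0.15) and BomS6 -1.72 (SE 0.12), while BomT3 was enriched at 0.56, a call lost without the pairing (adjusted p = 0.105) and without preparation 1 (adjusted p = 0.0568). Odorant binding proteins, secreted into the lymph of sensory hairs, gave 9 depleted of 30, with Obp19a at -0.92 and Obp57c at -0.68, and 1 enriched, Obp19c (1.17). Without the pairing, 2, 1, 4 and 2 members of these lists were depleted, and Pdf, Ilp2, Drsl4, Def, Obp19a and Obp57c were not called. Without preparation 3, 4 of 11 antimicrobial peptides were depleted, and without preparation 2, 4 of 28 odorant binding proteins.

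Muscle genes were depleted in part, with the heavy chain of myosin apart from its light chain. Of 27 tested contractile genes 14 were depleted (51.9%, beside 9.44% of all genes tested) and none enriched, with a median of -0.54. Mlc2, the regulatory light chain of myosin, had 1449, 4723 and 1503 CPM in the lysates and 625, 1915 and 500.0 CPM in the pellets, with preparation 2 above the others in both, and fell in each preparation (log2 fold change -1.37, SE 0.10, adjusted p = 6.56e-07 by edgeR). TpnC73F, a troponin C, had -1.63 (SE 0.12), Mlp60A -1.25, Zasp66 -1.10 and the actin Act57B -1.05. Mhc, the heavy chain of the same myosin, had 5618, 16234 and 5636 CPM and 5126, 16020.1 and 4901 CPM, a log2 fold change of -0.12 (adjusted p = 0.368). Msp300, a giant spectrin-repeat protein that was looked at after its value had been seen, had 0.48 (adjusted p = 0.0019), within the fold limit. Without the pairing 1 of the 27 was called, and Mlc2 (adjusted p = 0.23), Mlp60A, Zasp66 and Act57B were not. Without preparation 2, 14 of 26 tested were depleted.

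Among enzymes of detoxification, more genes were enriched than depleted. Cytochromes P450 sit in the membrane of the endoplasmic reticulum or in mitochondria, and 15 of 69 tested were enriched (21.7%) and 2 depleted. Cyp4e1 had 26.5, 33.9 and 27.7 CPM in the lysates and 64.3, 79.1 and 67.4 CPM in the pellets, a log2 fold change of 1.26 (SE 0.09), and Cyp6a2 had 0.91. Cyp4g1, which makes the waxes of the cuticle, had 169.6, 1799.6 and 1000.1 CPM in the lysates and 243, 2349 and 1361 CPM in the pellets, a wide spread between preparations and a like step within each (0.45, within the fold limit). The largely soluble glutathione S-transferases gave 7 enriched of 31 (22.6%) and 2 depleted (6.45%), with GstE14, which acts in ecdysteroid synthesis, at 2.03 (SE 0.10) and GstS1 at 1.49 (SE 0.11). Soluble enzyme complexes gave no call by edgeR: 0 of 31 proteasome genes, from -0.13 to 0.44, and 0 of 12 glycolytic enzymes, from 0.02 to 0.45 on the log2 scale. At an unadjusted p below 0.05, 6 of the 31 and 5 of the 12 passed, and DESeq2 called 0 in both lists. Without preparation 2, 1 proteasome gene and 2 glycolytic genes were enriched.

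Depletion followed the exon length of the gene, and strong enrichment did not. Protein-coding genes were cut into 10 bins of nearly equal number by exon length, the summed length of all annotated exons of a gene. It can exceed the length of any single transcript of the gene. In the shortest bin, of 162 to 865 bases, the median log2 fold change was -0.49, 41.0% of genes were depleted and 2.93% enriched. In the longest bin, of 6011 to 71820 bases, the median was 0.17, 1.31% were depleted and 11.3% enriched. The median rose from bin to bin without a break, and did so in preparations 2 and 3 taken alone. In preparation 1 it was -0.03 in both the fourth and the fifth bin and rose elsewhere. Enrichment by a log2 fold change above 1 showed no such course, at 1.74% of genes in the shortest bin, 3.6% in the fifth and 1.53% in the longest. Across 9167 protein-coding genes, which are not independent replicates, Spearman's rho with the log2 fold change was 0.45 for exon length, 0.50 for coding length, 0.19 for untranslated length and 0.35 for the number of introns. It was 0.24 for the mean CPM. Depleted coding genes had a median exon length of 955 bases, uncalled genes 2293 bases and enriched genes 2762 bases.

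**Figure D4:**
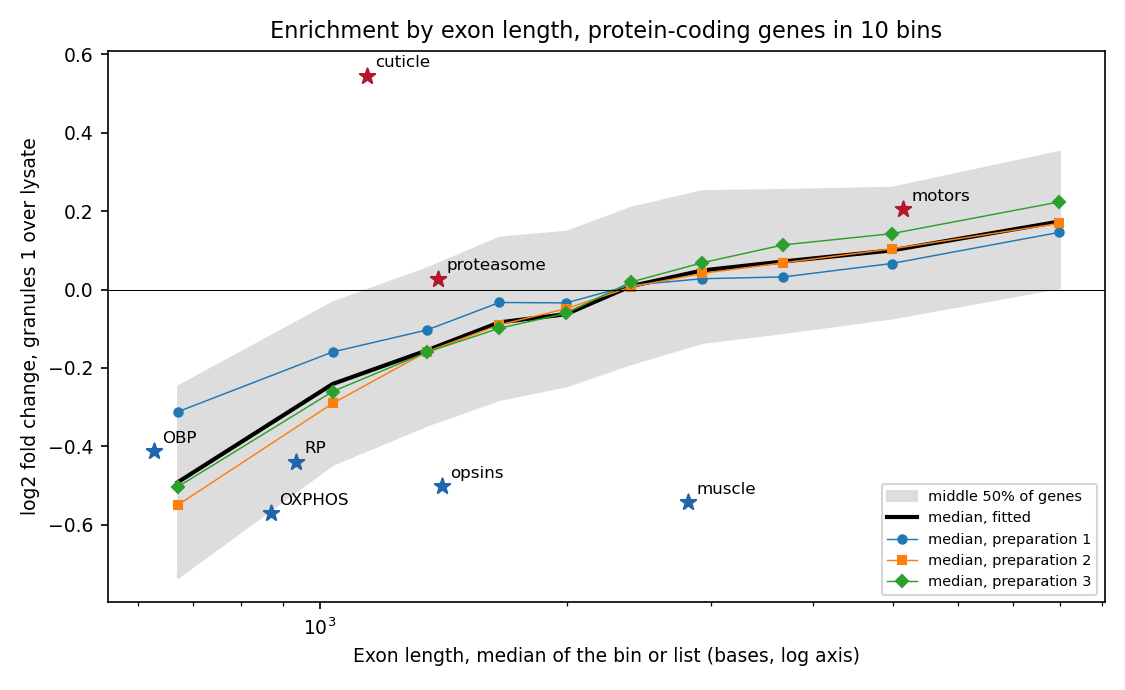
Log2 fold change of granules 1 over lysate against exon length (log axis) for 9167 protein-coding genes in 10 bins of nearly equal number: the black line is the median of the fitted values, the grey band the middle 50% of genes and the coloured lines the medians of the 3 preparations. Stars are the medians of gene lists, of which cuticle lies above the band, and opsins and muscle below it.

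Several genes of very large exon length were enriched by less than 1 on the log2 scale. Exon lengths were 30414 bases for shot, a spectraplakin, 14454 for karst (kst), a spectrin, and 14597 for Dhc64C, the heavy chain of dynein. Their log2 fold changes were 0.62, 0.79 and 0.72, each with an SE of 0.09. dpy, which encodes a giant matrix protein and has an exon length of 71820 bases, had 0.62, and the lipoprotein receptor mgl had 0.83. dpy and mgl were looked at after their values had been seen, and the call of dpy was lost without the pairing (adjusted p = 0.151). In the list of motors and cytoskeleton, 6 of 34 tested genes were enriched (17.6%, beside 7.29% of all genes tested), shot, kst and Dhc64C among them. The light chain of dynein, ctp, was depleted (-0.67, SE 0.08). After a fit that removed the trend with length within each library, shot (0.32), Dhc64C (0.48) and dpy (0.24) lost their calls and ctp kept its own at -0.79. The same fit left 650 genes enriched and 504 depleted of 9551 tested. Medians shrank from -0.44 to -0.21 for cytosolic ribosomal proteins, from -0.45 to -0.18 for mitochondrial ones, from -0.41 to -0.03 for odorant binding proteins and from -0.58 to -0.13 for antimicrobial peptides. For oxidative phosphorylation -0.33 was left, with 16 of 69 depleted.

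Other lists had medians away from 0 after the length correction as well. Muscle genes had a median of -0.74 (18 of 27 depleted), opsins -0.46, mitochondrially encoded RNAs -0.91 (11 of 15 depleted), cuticle genes 0.59 (19 of 38 enriched) and pteridine genes 0.61 (6 of 12 enriched). For small nuclear RNAs it was -0.67, with 6 of 14 depleted. For pseudouridylation guides it was 0.89, with 54 of 79 enriched, against 0.56 and 27 of 79 without the correction. The uncorrected count of enriched guides was 12 of 75 without preparation 2 and 4 of 79 without the pairing. The corrected fit was not repeated without preparation 2 or without the pairing. The median exon length was 140 bases for the guides and 191.5 for small nuclear RNAs, against 670 in the shortest bin of coding genes. At such lengths the trend was fitted mostly on longer mRNAs, so corrected values of these short RNAs are less certain. Arc1, which encodes a capsid-forming protein that packs its own mRNA, went from 712, 807 and 949 CPM in the lysates to 272, 166 and 288 CPM in the pellets (log2 fold change -1.79, SE 0.14) and had -1.83 with the correction. It was singled out after its value had been seen.

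The pellet of Δmimi flies was compared in the same way, from its own lysates. mimi was at 15.9, 11.8 and 12.1 CPM in the Δmimi lysates and at 1491, 947 and 1280.4 CPM in the wild-type lysates on a scale common to all 18 libraries. In Δmimi, 540 genes were enriched (5.55% of 9736 tested) and 845 depleted (8.68%). Of the 710 genes enriched in wild type, 392 were also called enriched in Δmimi, and of the 920 depleted 552 were also depleted. Those are 55.2% and 60% of the wild-type calls and 74.8% and 66.2% of the Δmimi calls among genes tested in both genotypes. Side by side, the log2 fold change of se was 2.69 in Δmimi against 3.06, Pu 2.55 against 2.72, Crys 3.40 against 2.83, Rh4 -1.40 against -1.41 and mt:lrRNA -2.16 against -2.16. The difference between the genotypes, tested as an interaction, was called for 35 of 9774 genes, 31 higher in wild type (0.317%) and 4 lower (0.0409%), and none of those 5 genes was among them. Dop2R, a dopamine receptor, differed in direction. It had 415, 345 and 334 CPM in wild-type lysates and 727, 707 and 569 CPM in the pellets (log2 fold change 0.87, SE 0.09), whereas in Δmimi its log2 fold change was -0.83 (SE 0.08). The difference was 1.68 (SE 0.13, adjusted p = 2.83e-05 by edgeR). salr, a spalt transcription factor, had 1.93 in wild type and 0.08 in Δmimi (adjusted p of the difference = 4.61e-05). The transporter gene st (1.56 against 0.92) and GstS1 (1.49 against 0.33) were more enriched in wild type, and Cpr72Ec (1.51 against 2.44) less. Without the pairing, 1 gene was called, salr.

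**Figure D5:**
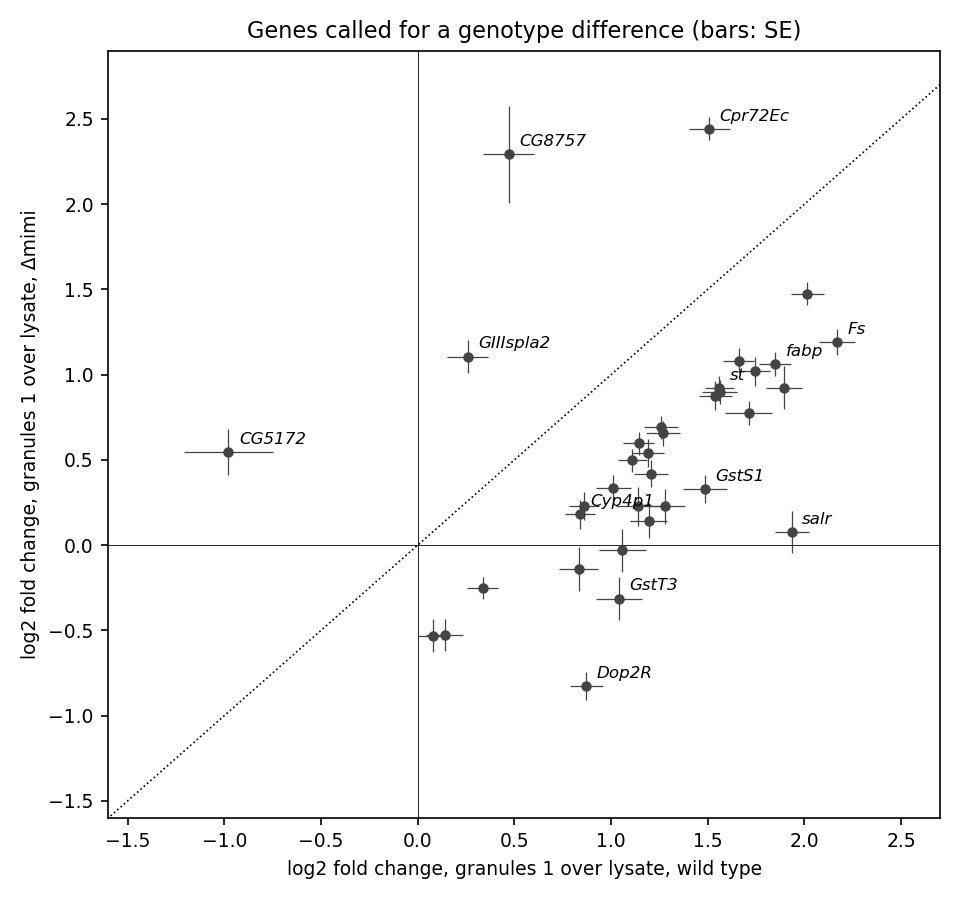
Log2 fold change of granules 1 over lysate in wild type (horizontal) and Δmimi (vertical) for the 35 genes whose enrichment differed between the genotypes in the paired fit, with bars for the SE from 3 preparations each and a dotted line at equal values. Of these, 31 lie below the line, and Dop2R and CG5172 were called in opposite directions in the genotypes.

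No gene passed the test between the washed and the unwashed pellet. Granules 2 were compared with granules 1 of the same preparations, and 0 of 9559 genes were called by edgeR (0.0%), with 333 at an unadjusted p below 0.05. Without the pairing the count was also 0, with 97 at an unadjusted p below 0.05, and without preparation 1 it was 18. Against the same lysates, the washed pellet gave 763 enriched (7.94%) and 968 depleted (10.1%) genes of 9612 tested. For se the log2 fold change was 3.03 in granules 2 and 3.06 in granules 1, Crys 3.16 and 2.83, mimi 0.97 and 1.03, Rh4 -1.36 and -1.41, and mt:srRNA -2.27 and -2.62. Both sets of values share the 3 lysate libraries.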

How the data were processed

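RNA of fly heads and pellets was extracted, depleted of rRNA, made into stranded libraries and sequenced. The deposited values are raw counts of reads per gene, which the authors made on dm6 with Ensembl gene models. The submitters' processing notes name STAR, Subread, featureCounts and DESeq2. The strand setting of the counting and the aligner version are not given in the sources used here. Columns of the authors' own comparisons were not used, and 0 other columns were left out. Gene coordinates and lengths came from the Ensembl annotation of the same assembly, which matched 17252 of 17558 identifiers. The 306 unmatched identifiers stayed in the tests.

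Counts were tested with edgeR 4.0.16 (R 4.3.3) by the quasi-likelihood F test, with TMM factors, the replicate number as a block and genes of base mean above 10. Genes were called at a Benjamini-Hochberg adjusted p below 0.05 and an absolute log2 fold change above 0.5. Each SE was the absolute log2 fold change over the square root of F. Log2 ratios within a preparation used a pseudocount of 0.5 CPM. Shares were taken of all counts and compared by exact permutation without the pairing (scipy 1.17.1). Medians of lists carry no test.

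The numbers pair the fractions: the series description ties each pellet to the lysate of its preparation, and deviations from the group means correlated at 0.61, 0.72 and 0.45 between fractions of the same number. The fit without the block was an alternative, as were DESeq2 1.42.0, RLE factors, library totals, other filters, a loess length correction (span 0.3) and leaving out each preparation. On simulated counts of this comparison, 9698 genes were tested. There 93.9% of genes changed by 1 on the log2 scale and 100.0% of those changed by 2 were recovered, with 1 false call. The counts were drawn with the spread that edgeR had estimated and were fitted with the same model. Shifts between preparations were made equal in both fractions, so the rate of false calls in the real data was not tested.

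The members and lists were chosen with earlier results of these data known. Named by rule were the 10 largest changes in each direction that held in all 3 preparations, the 3 called members of each list with the lowest p in each direction and its member of highest mean CPM, mimi and the components the study followed. Members outside this rule were chosen after their values were seen. Total counts of 5598380 to 7798946 limit the precision of low genes. No description by class of protein was made.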

Additional observations from a re-analysis of the deposited data

Results flagged for a closer look

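The enrichment of 10 named genes, 7 from the gene lists and Dop2R, salr and fabp singled out after their values had been seen, differed between wild type and Δmimi in edgeR's interaction test, given here as the wild-type minus the Δmimi log2 fold change of granules 1 over lysate. The difference was 1.68 for Dop2R (adjusted p = 2.83e-05), 1.84 for salr (adjusted p = 4.61e-05), 1.33 for GstT3, 1.13 for GstS1 and 0.95 for GstD3. It was 0.77 for the fatty acid binding protein gene fabp, 0.64 for Cyp4p1, 0.62 for st and 0.63 for the cadherin gene Cad96Ca. Cpr72Ec differed the other way, by -0.95. Without the pairing salr alone was called, so the other 9 rest on the pairing of fractions within preparations.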

How the results depend on the processing

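Without the replicate block, 796 genes were called in granules 1 against lysate, 469 enriched and 327 depleted, of which 468 and 326 were also called with it. DESeq2 with the pairing gave 497 depleted genes and the length correction 504. An absolute log2 fold change above 1 left 408 genes, 257 enriched and 151 depleted. The share of calls that were enriched was 43.6%, and 58.9% without the block, 55.7% with DESeq2, 56.3% with the length correction and 35.7% with library totals in place of TMM, which gave 622 enriched and 1119 depleted. None of these settings called a gene in the opposite direction. Leaving out 1 preparation gave 1320 to 1661 called genes, 664 to 753 enriched and 656 to 956 depleted. For the genotype difference, 1 gene was called without the block, and 12 to 75 when 1 preparation of either genotype was left out. The count was 75 without wild-type preparation 2 and 32 without wild-type preparation 1, and 12 to 15 without any of the others. The wash gave 0 to 18 calls, with 18 without preparation 1. The difference in the share of counts of small nucleolar RNA was 0.00897 percentage points and turned to -0.028 without preparation 2, with a range of -0.028 to 0.0468. For mitochondrially encoded RNAs it was -2.81 to -2.57, for small nuclear RNA -0.8 to -0.691, for RNase P and RNase MRP RNA -0.328 to -0.24 and for 7SL RNA -0.131 to -0.0764. Long noncoding RNA gave -0.309 to -0.044 and antisense RNA -0.00662 to -0.00148. Of 270 named genes, 201 kept their call or its absence without the block, 224 with the length correction and 252 of 268 without preparation 2. The cause of these changes was not tested. Medians by class of protein were planned and not run.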

Other observations

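Chromosome 4, a small and mostly heterochromatic chromosome, had 2 of 88 tested genes called by edgeR, both depleted, with a median exon length of 3946 bases. On the other chromosomes 6.47% to 8.04% of genes were enriched and 8.84% to 10.5% depleted. This was looked at after values had been seen, and no test was made.

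Some matrix genes were enriched as well. Of 11 tested basement membrane genes 2 were enriched (18.2%, beside 7.29% of all genes tested) and none was depleted. The 2 were Ppn, papilin, at 0.79 and LanB2, a laminin chain, at 0.84. Both calls were lost without the pairing. NimA, a Nimrod receptor gene, had 7.83, 6.99 and 6.6 CPM in the lysates and 44.4, 35.9 and 58.2 CPM in the pellets, a log2 fold change of 2.65 (SE 0.15). Swim, a secreted Wingless-binding protein, had 2.57 (SE 0.11). NimA and Swim were singled out after their values had been seen and stand for no list. Heat shock proteins and chaperones gave 1 enriched of 21 (4.76%, beside 7.29% of all genes tested). It was Hsp70Ba at 1.08, a gene with near-identical copies that the counting could split. The call of Hsp70Ba was lost without preparation 1 (adjusted p = 0.158) and without preparation 3 (adjusted p = 0.157). Of 13 clock genes tested, tim alone was enriched (0.60), which is 7.69% of them beside 7.29% of all genes tested. Its call was lost without the pairing (adjusted p = 0.0503).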
